A study of Mus musculus with 6 samples.

Results

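The cytosolic ribosomal protein genes were followed across 6 microarrays of mouse dorsal root ganglion neurons. They were chosen by name alone: a gene belonged where its symbol on the array was that of a numbered large subunit protein (Rpl, Rplp) or small subunit protein (Rps), also where a single letter a, l or x followed the number. By this rule 45 of the 18193 genes measured by probe sets with a single symbol were members, 24 of the large and 21 of the small subunit. Together they had 98 probe sets, and each gene was represented by its brightest probe set, by the mean of log2(signal + 32) over the arrays. A further 110 probe sets carried a symbol of this kind together with other symbols, and 28 such symbols occurred only there, so Rplp1, Rpl3, Rpl10 and Rps27a were not measured here as single genes.

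The ribosome joins amino acids into proteins, and its large and small subunits are each built from ribosomal RNA and a fixed set of ribosomal proteins that are needed in roughly equal numbers. The mRNAs of these proteins are short and abundant. Most of them start with a C followed by a run of pyrimidines, the terminal oligopyrimidine tract, through which mTOR signalling controls their translation. In sensory neurons ribosomal protein mRNAs are found in the cell body and also in axons, where local synthesis of ribosomal proteins has been described.

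The neurons were collected as pools, each pool gave total RNA for 1 array, and the sample titles carry 3 codes. L3-B was the control, with 50 neurons a pool, and L3-S and L6-R were neurons labelled with DiI, a lipophilic fluorescent dye carried back along the axon to the cell body, with 20 neurons a pool. Each code had 1 pool of big diameter neurons and 1 of medium to small diameter neurons. What the codes stand for, where the dye was applied, and the number, age and strain of the mice are not stated in the labels, which name no treatment other than the dye. The control differs from the labelled pools in code, in dye and in the number of neurons, and these cannot be told apart. In pooled cells, fewer cells of a type and less RNA per cell cannot be told apart either.

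The pools carried the markers of sensory neurons: all 12 of 12 general neuron genes on a marker list, Tubb3, Snap25 and Rbfox3 among them, had a signal above 32 on each array. Other cells were also represented. The summed signal of 17 satellite glia and Schwann cell markers was 13842 and 12349 on the L3-B arrays, 14687 and 18386 on the L3-S arrays, and 17014 and 23276 on the L6-R arrays (big first). The markers on this list did not move together. S100b, the brightest of them in L3-B, had 6832 and 5546 for L3-B and 5114 and 4918 for L6-R. Apoe had 540 and 913 for L3-B, 2764 and 3745 for L3-S, and 2394 and 5224 for L6-R. The 15 connective tissue and vessel markers summed to 565 and 412 for L3-B, 1529 and 1644 for L3-S, and 1218 and 2166 for L6-R, lowest in the control, and 4 of them were below 32 on each array. The 11 blood and immune markers measured summed to between 149 and 367, with 7 below 32 on each array. The summed signal of 8 peptidergic nociceptor markers was 3664 and 3853 for L3-B, 5641 and 5168 for L3-S, and 13132 and 9812 for L6-R. In this list Tac1 had 167 and 74.8 for L3-B and 5435 and 4090 for L6-R. Scn11a was lower in L6-R within each size class, with 1759 and 1478 for L3-B and 1551 and 1275 for L6-R. The sum of 8 large-diameter neuron markers was lowest for L6-R, with 22484 and 20048 for L3-B, 17950 and 21238 for L3-S, and 13197 and 11031 for L6-R. Nefh was the brightest of these on each array. Pvalb was highest in L3-S, with 723 and 756 for L3-B, 2084 and 3413 for L3-S, and 69.1 and 31.9 for L6-R. Other markers of this list went the other way. Ntrk3, Scn1a, Vamp1 and the dim Slc17a7 were lower in L3-S than in L3-B within each size class. Ntrk3 had 2243 and 2087 for L3-B and 1155 and 791 for L3-S. The dim Runx3 was higher in L3-S, and Nefh and Kcnc1 differed in direction between the size classes. These lists stand beside the L6-R and DiI values that follow, and their part in them was not tested.

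RNA from so few cells has to be amplified before it is labelled, and amplified RNA often keeps the 3′ end of a transcript better than its 5′ end. The array reports this for Actb, the cytoplasmic actin gene, through separate probe sets at both ends. With big first, the Actb 3′ to 5′ signal ratio was 13.9 and 3.73 for L3-B, 5.42 and 12.0 for L3-S, and 8.31 and 8.42 for L6-R. Thus the size classes of L3-B and of L3-S differed in opposite directions, and those of L6-R were nearly equal. The Gapdh ratio had the same order within each pair, from 3.68 to 8.76 over the 6 arrays.

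The sequence around the gene start shows what these genes share apart from their protein products. RefSeq promoter sequences on GRCm38.p6, with 250 bases before the annotated start and 50 from it on, were matched by symbol for 39 of the 45 members. Windows of 60 bases are shown for 8 of them, from 40 before the start to 20 from it on, written 5′ to 3′ on the strand of the gene. Capitals mark the longest run of C and T that touches the 10 bases on either side of the start. The first pair, Rps6 (chr4:86857348-86857407, minus strand) and Rpl41 (chr10:128549149-128549208, minus), had the largest L6-R minus L3-S differences. Rps10 (chr17:27635225-27635284, minus) and Rpl38 (chr11:114668540-114668599, plus) differed most between the L3-B arrays, and Rps18 (chr17:33955646-33955705, minus) is the small subunit gene nearest to the median pattern. Rplp0 (chr5:115559427-115559486, plus) and Rps2 (chr17:24720023-24720082, plus) did not share the L3-B difference, and Rpl7a (chr2:26910767-26910826, plus) had the longest run.
Rps6: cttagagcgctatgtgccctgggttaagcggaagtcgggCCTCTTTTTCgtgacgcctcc
Rpl41: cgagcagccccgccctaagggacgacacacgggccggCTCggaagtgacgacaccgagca
Rps10: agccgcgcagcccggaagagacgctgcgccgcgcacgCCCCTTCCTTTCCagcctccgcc
Rpl38: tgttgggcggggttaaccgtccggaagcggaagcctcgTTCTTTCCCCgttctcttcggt
Rps18: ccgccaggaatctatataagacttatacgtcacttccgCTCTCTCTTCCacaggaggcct
Rplp0: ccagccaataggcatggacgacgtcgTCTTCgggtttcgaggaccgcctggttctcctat
Rps2: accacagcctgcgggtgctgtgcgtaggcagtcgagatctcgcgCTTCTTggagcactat
Rpl7a: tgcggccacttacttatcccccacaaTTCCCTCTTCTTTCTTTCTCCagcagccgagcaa

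Pyrimidine runs at the start were common among the members. A run of at least 6 was present in 26 of the 39 (66.7%), against 32.7% of the promoters of 27025 genes. A run of at least 10 was present in 13 (33.3%), against 8.14%, and the longest was the run of 21 in Rpl7a. The median run was 7 bases in the members and 4 over all genes. The short motif TTCCGG, which ETS family factors are known to bind, was found on either strand in 25 of the 39 promoters (64.1%), against 16.7% of all. The GC box core GGGCGG, a known binding sequence of Sp1, was found on either strand in 21 (53.8%, against 38.2%), and AAGATGG, the core letters of the YY1 motif, in 7 (17.9%, against 7.28%). TATAAA on the gene's own strand was found in 4 (10.3%, against 9.77%). These motifs were searched separately and a promoter can hold several. Such matches describe the letters in the window and show no binding.

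Of the 45 members, 39 lay in the upper 50% of genes by mean log2 and were tested, 21 of the large and 18 of the small subunit. The 6 below this limit were Rpl12, Rps16, Rps25 and Rps27, and the tissue-restricted relatives Rpl3l and Rpl39l. Their highest signal on any array was 104, in Rps27. These genes are represented here by dim probe sets, and their low signals say nothing of how much of the protein the neurons make. Of the 39 tested members 33 lay in the upper 25% of genes, and the summed signal of the 39 was 125004 and 83848 for L3-B, 97564 and 109436 for L3-S, and 135905 and 129311 for L6-R (big first). The medium to small pool of L3-B had the lowest sum and the L6-R arrays the highest. Signals of different probe sets are not compared with each other here.

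**Figure D1:**
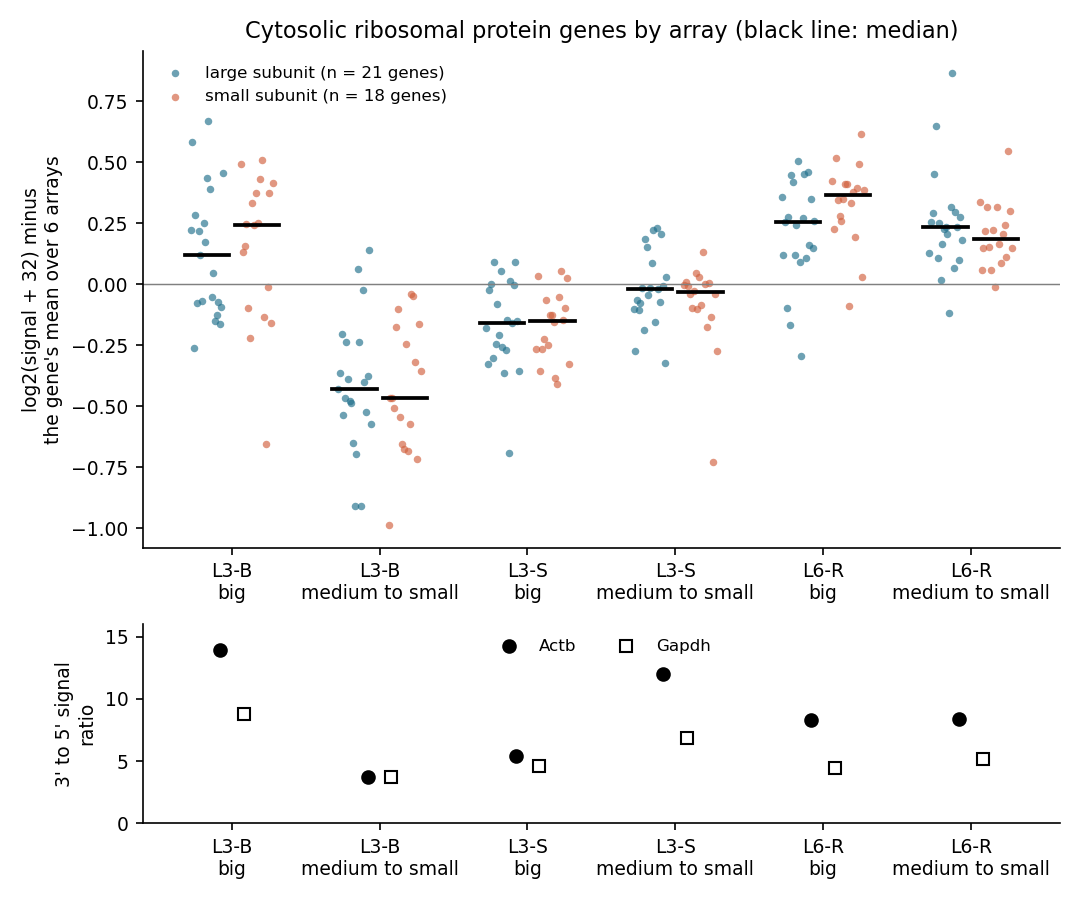
Upper panel: each point is 1 of 39 ribosomal protein genes, placed by its log2(signal + 32) on that array minus its own mean over the 6 arrays, with large subunit genes in blue, small subunit genes in orange and the median as a black line. The medians of both subunits lie lowest for the medium to small pool of L3-B (-0.43 and -0.46) and highest on the L6-R big array (0.26 and 0.37). The lower panel gives the 3′ to 5′ signal ratio of Actb (filled circles) and Gapdh (open squares) on the same arrays.

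The medians of the subunits lay within 0.12 of each other on each array. The median deviation from each gene's own mean was 0.12 for the large and 0.24 for the small subunit on the L3-B big array. The lowest of both, -0.43 and -0.46, belonged to the medium to small pool of L3-B. The L3-S arrays lay between, with -0.16 and -0.15 for big and -0.02 and -0.03 for medium to small. In L6-R it was 0.26 and 0.37 for big and 0.23 and 0.19 for medium to small. The widest gap was on the L3-B big array, with the large subunit lower, against a span of 0.69 for the large and 0.83 for the small subunit over the arrays. For 30 of the 39 genes the lowest of the 6 arrays was that of the L3-B medium to small pool. The highest array was L6-R big for 18, L6-R medium to small for 11 and L3-B big for 10. How often these arrays were the lowest or highest over all tested genes was not counted.

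In L6-R against L3-S, the comparison of both DiI-labelled codes, 37 of the 39 tested ribosomal protein genes had higher values in L6-R, by a median of 0.38 on the log2(signal + 32) scale, and none passed the test. The test was limma with an additive fit of code and size class over the 6 arrays, two-sided, with a Benjamini-Hochberg adjusted p of at most 0.05 over 9097 genes. It called 3.18% of all tested genes in this comparison, and the median of all genes was -0.01. The large subunit had a median of 0.32 and the small subunit 0.40, with all 18 of its tested genes higher. Of the 39 genes, 31 (79.5%) were brighter on both L6-R arrays than on both L3-S arrays, a state found in 25.3% of all tested genes. The brightest 10% of genes other than members had a median of -0.00239. Without the limit on brightness, 40 of the 45 members were higher in L6-R, with a median of 0.32.

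The size of this difference depended on the L3-S arrays. Without the L3-S big array the members' median was 0.13, with 25 of 39 genes higher in L6-R, and with the medium to small L3-S array left out in its place it was 0.62, with 38 higher. Compared array by array, the median was 0.50 between the big pools and 0.25 between the medium to small pools, with 36 of 39 genes higher in L6-R in each. The Actb ratio was higher in L6-R than in L3-S in the big pools and lower in the medium to small pools. With 1 array per pool, the p-values measure the spread left by the additive fit, which rests on 2 residual degrees of freedom and may be technical.

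**Figure D2:**
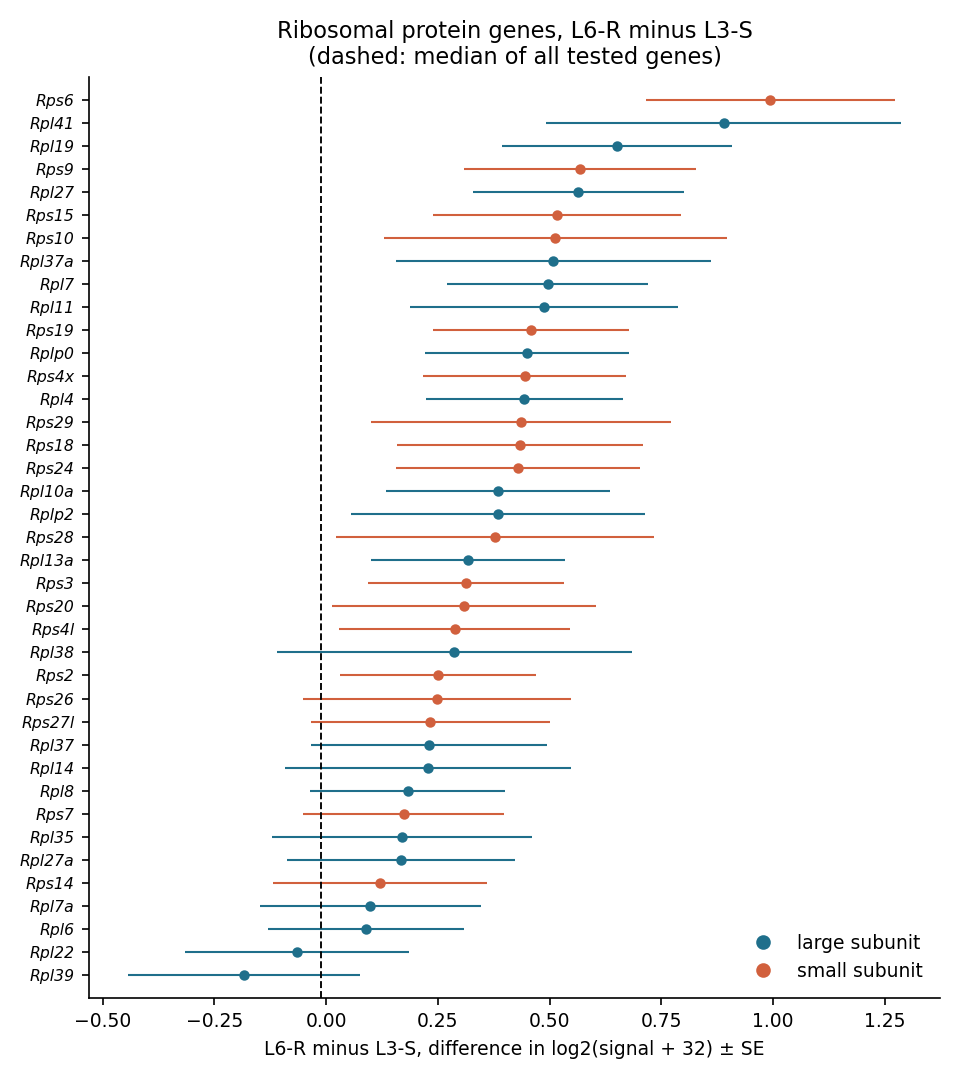
Each row is 1 of the 39 tested ribosomal protein genes, with its L6-R minus L3-S difference in log2(signal + 32) as a point and the standard error of the additive fit as a bar; blue is the large and orange the small subunit, and the dashed line is the median of all tested genes (-0.01). All points but Rpl22 and Rpl39 lie above 0, and Rps6 (0.99) and Rpl41 (0.89) lie farthest.

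Rps6 encodes the small subunit protein that S6 kinase phosphorylates downstream of mTOR. It had the largest difference of the members between L6-R and L3-S. Its signals were 164 and 60.1 for L3-B, 110 and 59.2 for L3-S, and 200 and 189 for L6-R (big first). Both L6-R arrays lay above the other 4, and the big array of each code was the higher one. The difference was 0.99 ± 0.28 (SE) against L3-S, with a limma adjusted p of 0.111. This gene is measured by a dim probe set, near the limit of the test, and its second probe set lay below that limit with a difference of -0.04.

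Rpl41 encodes a very small and basic protein of the large subunit. Its signals were 3332 and 1704 for L3-B, 1987 and 3789 for L3-S, and 4428 and 5899 for L6-R. Both L6-R arrays were above all others, and the size classes ran in opposite directions in L3-B and L3-S. Its difference was 0.89 ± 0.40 against L3-S (limma adjusted p 0.327) and 1.09 ± 0.40 against L3-B (limma adjusted p 0.155). A second bright probe set of Rpl41 gave 0.66 against L3-S, and another, much dimmer one gave -0.26. Leaving out either of the L3-B arrays gives the same fit between L6-R and L3-S, since the control array that remains has no replicate. It leaves fewer residual degrees of freedom than the fit to all arrays. The differences of Rps6 and Rpl41 from L3-S in it were as above.

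Rpl19 encodes a large subunit protein of the face that meets the small subunit. Its signals were 2529 and 1921 for L3-B, 2157 and 2531 for L3-S, and 3234 and 4199 for L6-R. The L6-R arrays were the highest, and its difference from L3-S was 0.65 ± 0.26 (limma adjusted p 0.261). Rpl27 had 2096 and 1462, 1620 and 1683, and 2633 and 2292 in the same order, a difference of 0.56 ± 0.24 (limma adjusted p 0.294). Rps6, Rpl19 and Rpl27 were the 3 members with an unadjusted p under 0.05 in this comparison, which 15.6% of all tested genes had. In the small subunit Rps9 (0.57), Rps15 (0.52), Rps10 (0.51), Rps19 (0.46) and Rps4x (0.44) came next by size of difference, each with a limma adjusted p of 0.337 or more.

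The stalk of the large subunit recruits elongation factors, and Rplp0 is its base. Its signals were 2632 and 3098 for L3-B, 2526 and 2236 for L3-S, and 3115 and 3402 for L6-R. The L6-R arrays were highest, the big one by little over the L3-B medium to small array, and the difference from L3-S was 0.45 ± 0.23 (limma adjusted p 0.393). Rplp2, an acidic protein bound to Rplp0 in the stalk, had 6337 and 3091, 3600 and 4709, and 5529 and 5242. Here the L3-B big array was the highest of all, and the difference of L6-R from L3-S was 0.38 ± 0.33 (limma adjusted p 0.634). Both stalk genes were higher in L6-R than in L3-S within each size class, and their control arrays were ordered in opposite ways.

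Only Rpl22 and Rpl39 among the tested members were lower in L6-R than in L3-S. Rpl22, a large subunit protein that is dispensable in most cells and has a close relative in Rpl22l1, had 1938 and 1406 for L3-B, 1773 and 1643 for L3-S, and 1479 and 1795 for L6-R. Its groups overlapped, with a difference of -0.07 ± 0.25 (limma adjusted p 0.935), and its other bright probe sets ranged up to 0.54. Rpl22l1 itself was also lower in L6-R, at -0.28 ± 0.22 (limma adjusted p 0.598). Rpl39 lies at the exit tunnel of the large subunit. Its signals were low, 142 and 106 for L3-B, 78.1 and 123 for L3-S, and 76.1 and 90.2 for L6-R, a difference of -0.18 ± 0.26 (limma adjusted p 0.793).

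The most typical members were Rpl37a in the large and Rps18 in the small subunit, those nearest to the median pattern. Rps18, in the head of the small subunit, had 5571 and 3295 for L3-B, 3898 and 4571 for L3-S, and 5966 and 5470 for L6-R. Its L6-R arrays lay above the L3-S arrays and on both sides of the L3-B big array, and its difference from L3-S was 0.43 ± 0.28 (limma adjusted p 0.504). Rpl37a, a zinc-binding protein, had 2181 and 840.1, 1338 and 1586, and 2294 and 1896, with a difference of 0.51 ± 0.35 (limma adjusted p 0.545). In both genes the lowest value was that of the medium to small control pool.

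Against the control L3-B, L6-R again had higher values for 37 of the 39 genes, with a median of 0.37, 0.44 for the large and 0.37 for the small subunit. No member passed, while 7.51% of all tested genes did. Of the 39 members 6 (15.4%) had an unadjusted p under 0.05, against 21.6% of all tested genes. They were Rpl41, Rpl19, Rpl7, Rpl13a, Rps6 and Rps4l. Both L6-R arrays were above both L3-B arrays in 19 of the 39 (48.7%), against 25.8% of all tested genes. This comparison and the one with L3-S share the L6-R arrays, so their values are not independent.

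Rpl7, which binds ribosomal RNA in the large subunit, had 2999 and 2472 for L3-B, 2926 and 3107 for L3-S, and 4511 and 4031 for L6-R. Both L6-R arrays stood clear of the others, at 0.64 ± 0.23 over L3-B (limma adjusted p 0.143). Rps4x, the X-linked form of a small subunit protein, had 5384 and 4344, 4893 and 4933, and 7643 and 5864, with a difference of 0.47 ± 0.23 (limma adjusted p 0.283). Rps4l, its relative, was dim at 107 and 180, 196 and 188, and 256 and 227, with a difference of 0.67 ± 0.26 (limma adjusted p 0.179). Rps4l had its lowest value on the L3-B big array, as 3 other members did.

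The L6-R minus L3-B result differed between the control arrays. Between the big pools the members' median was 0.17, with 27 of 39 higher in L6-R, and between the medium to small pools 0.61, with 38 higher. Without the L3-B big array, which leaves the control a single array, the median over both size classes was 0.70. Rpl41 then had a difference of 1.90, Rpl37a 1.27, Rpl19 1.08 and Rps6 1.12. Without the L3-B medium to small array the median was 0.12, with 24 of 39 genes higher. Leaving out either of the L3-S arrays gives the same fit between L6-R and L3-B, with the differences unchanged.

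Between L3-S and L3-B the members went both ways. The median L3-S minus L3-B difference was 0.05, with 22 of 39 higher, and by limma none passed and none had an unadjusted p under 0.05. Of all tested genes 1.02% were called. The largest differences were 0.40 ± 0.25 for Rpl7a and -0.41 ± 0.30 for Rpl11, a large subunit protein that also binds the p53 regulator Mdm2. Rpl11 had 2089 and 1068 for L3-B, 1099 and 1142 for L3-S, and 1508 and 1661 for L6-R, with both extremes on the control arrays. The size classes gave opposite signs. Between the big pools the median was -0.37, with 8 of 39 higher in L3-S, and between the medium to small pools it was 0.36, with 36 higher. Leaving out the big or the medium to small array of L3-B gave 0.32 and -0.31, and of L3-S 0.24 and -0.18.

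Both DiI codes together against the control gave a median of 0.22, with 34 of 39 genes higher in the labelled neurons. No member passed in limma, 1 had an unadjusted p under 0.05, and 4.31% of all tested genes were called. Here too the size classes disagreed, with -0.10 between the big pools and 0.51 between the medium to small pools, where 37 of 39 were higher. The genes with the smallest unadjusted p were Rps4l (0.52 ± 0.22, limma adjusted p 0.287) and Rpl8 (0.40 ± 0.19, limma adjusted p 0.340), a protein near the catalytic centre of the large subunit. Without the L3-B big array, which leaves the control a single array, the members' median was 0.51 and Rpl41 had 1.46. Without the L3-B medium to small array the median was -0.10. With probe sets of the plain design only, those with no letter suffix a, s or x in their name, 7 of 15 members were higher and the median was -0.03.

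Big against medium to small neurons over all 3 codes gave a median of 0.19, with 29 of 39 members (74.4%) higher in the big pools, against 46.8% of all tested genes and 69.3% of the brightest 10% without the members. None passed, and the share called among all tested genes was 0.00% (320 of 9097 had an unadjusted p under 0.05). Rps6 was the only member with an unadjusted p under 0.05, at 0.60 ± 0.23 (limma adjusted p 0.998). The next by size of difference were Rpl37a (0.46), Rps26 (0.44), Rps10 (0.43), Rps24 (0.35), Rps29 (0.32), Rps9 (0.32) and Rpl37 (0.31), each with a limma adjusted p of 0.998. This average stood for unlike pairs of arrays: with either L3-B array left out the members' median was 0.00196, and with either L3-S array left out 0.35.

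Within L3-B, 33 of the 39 genes were brighter in the big array, by a median of 0.60, where the median of all tested genes was -0.02 and that of the brightest 10% without the members was 0.17. Within L3-S, 26 of the 39 were dimmer in the big array, with a median of -0.07, near that of the brightest 10% (-0.09). Within L6-R the median was 0.08, with 23 brighter and 16 dimmer, against 0.13 for the brightest 10%. The array with the higher Actb ratio was the big one in L3-B and the medium to small one in L3-S. In all, 25 of the 39 genes were brighter in the big array of L3-B and dimmer in that of L3-S, a state of 29.9% of all tested genes. Each of these differences is between 2 arrays and has no replicate. Quantile normalization kept the signs of L3-B (0.51) and L3-S (-0.04) and turned that of L6-R (-0.06). Probe sets of the plain design alone, 15 members, gave 0.31 for L3-B, 0.10 for L3-S and -0.13 for L6-R.

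Rps10, a protein of the head of the small subunit, had the largest difference within L3-B. Its signals were 2437 in the big and 854 in the medium to small array, a difference of 1.48, and its 5 bright probe sets ranged from 1.33 to 1.48. In L3-S they were 1430 and 1721 (-0.26), and in L6-R 2322 and 2185 (0.09). Rpl38, a large subunit protein known for its part in translating Hox mRNAs, had 7549 and 2914 for L3-B (1.36), 3668 and 5032 for L3-S (-0.45), and 5040 and 5467 for L6-R (-0.12). Rps28, of the small subunit, had 7070 and 3249 (1.11), 3997 and 5727 (-0.52), and 6605 and 5870 (0.17). All 3 genes were highest on the big and lowest on the medium to small array of the control.

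Other members did not share this difference. Rplp0 was dimmer in the big array of L3-B (-0.23) and brighter in that of L3-S (0.17). Rps2, a small subunit protein near the mRNA entry, had 5011 and 5440 for L3-B (-0.12), 5593 and 5728 for L3-S (-0.03), and 6992 and 6496 for L6-R (0.11). Rps3, which also lies there and has a part in DNA repair, had -0.09, 0.12 and -0.01 within the 3 codes. Rpl6 (-0.13 in L3-B), Rpl13a (-0.06) and Rps4l (-0.61) made up the 6 genes that were dimmer in the L3-B big array. Rpl13a was uncertain here, since its 4 bright probe sets ranged from -0.73 to 0.75. Rps3 was uncertain too, since its other bright probe set gave 0.31 within L3-B.

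**Figure D3:**
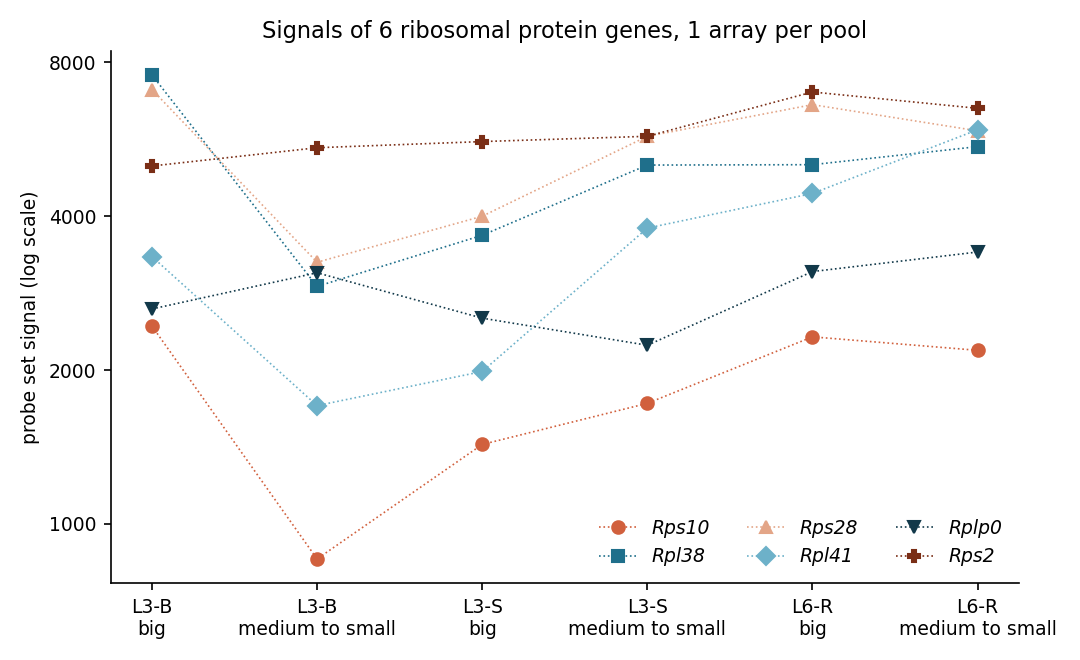
Signals on a log axis of 6 ribosomal protein genes on the 6 arrays, 1 marker per array, with dotted lines to guide the eye along a gene; heights of different genes are not comparable. Rps10, Rpl38, Rps28 and Rpl41 fall from the L3-B big to the L3-B medium to small array and are higher in the medium to small array of L3-S than in its big array, while Rplp0 and Rps2 stay within a narrower range.

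The differences within L3-B were also set beside the size of the encoded proteins. The 39 tested members were put into 3 classes of protein size, assigned by hand from textbook knowledge with no sequence or length measured. The grouping was chosen after the values were seen, is given without a test, and was not checked against transcript lengths: 11 of the smallest, 11 in the middle and 17 of the largest. Within L3-B the median big minus medium to small difference was 1.03 for the smallest, 0.62 for the middle and 0.21 for the largest class. All 11 of the smallest and all 11 of the middle class were brighter in the big array, and 11 of the 17 largest were. These counts use the brightest probe set of each gene. For Rpl22, of the middle class, the other bright probe sets gave -0.59 and -0.51. Of the 8 genes with a difference over 1 in L3-B, Rps10 was in the middle and Rps6 in the largest class, and the other 6 were in the smallest. Within L3-S the order was turned, with -0.38, -0.13 and 0.03, and 1 of the 11 smallest was brighter in the big array. Within L6-R, where the Actb ratios were 8.31 and 8.42, the medians were 0.08, 0.12 and 0.04.

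The L6-R minus L3-S difference had no such order. Its median was 0.31 for the smallest, 0.43 for the middle and 0.32 for the largest proteins, and 17 of 17 genes of the largest class were higher in L6-R. The corresponding L6-R minus L3-B medians were 0.31, 0.43 and 0.44. The part of RNA completeness in these differences was not tested. A fit with the log2 Actb ratio as a covariate cannot decide it between L6-R and L3-S. The ratios of L6-R (8.31 and 8.42) lie between those of L3-S (5.42 and 12.0), so the covariate can move that difference little. In that fit the members' median L6-R minus L3-S was 0.35, with 37 of 39 higher, and Rps6 (0.98, limma adjusted p 0.0101) and Rpl41 (0.86, limma adjusted p 0.0127) passed. That fit leaves 1 residual degree of freedom and called 994 genes in all (10.9%), against 2 of the 39 members (5.13%).

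**Figure D4:**
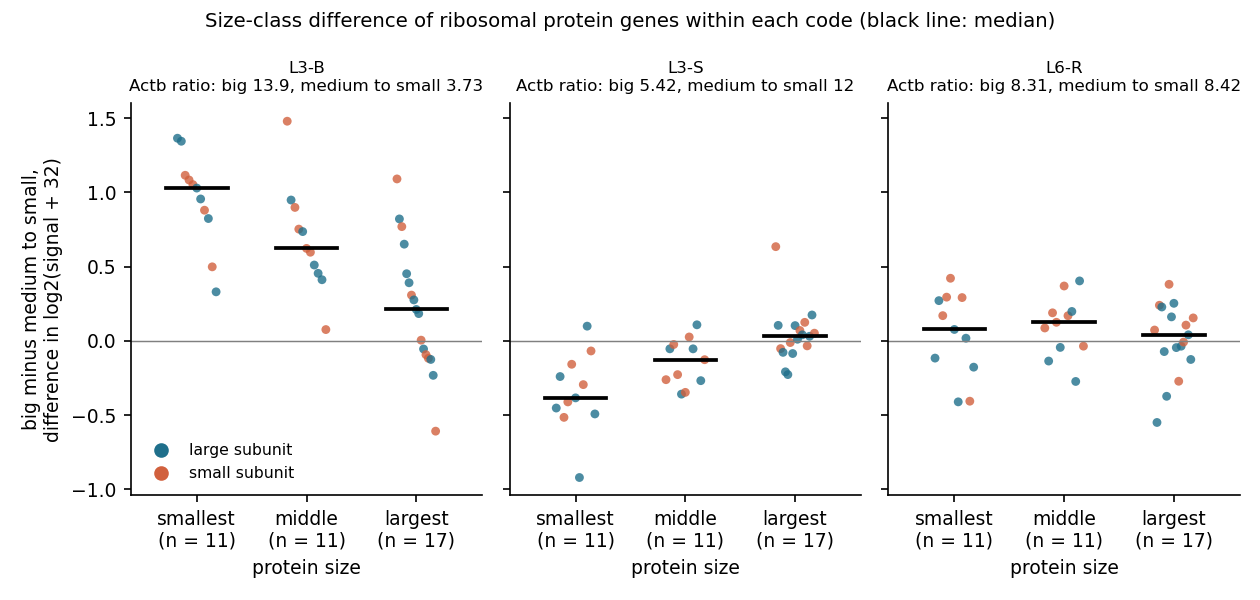
Big minus medium to small difference in log2(signal + 32) of 39 ribosomal protein genes within each code, by the size class of their protein (11, 11 and 17 genes), with the median of each class as a black line and the Actb 3′ to 5′ ratio of both arrays above each panel. The medians run down from the smallest to the largest proteins in L3-B (1.03 to 0.21), up in L3-S (-0.38 to 0.03) and stay near 0 in L6-R; each point compares 2 arrays.

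Most members followed the members' own median over the arrays. The Pearson correlation of a gene's log2 values with the median deviation of the members, over 6 arrays, had a median of 0.84. Over all tested genes the median was -0.03. The correlation was over 0.9 in 15 of the 39 members, and the share of all tested genes over 0.9 was not counted. Each member also contributes to the median it is compared with, which raises its value. Among the members the correlation was highest for Rps18 (0.99) and lowest for Rpl39 (-0.09). Rps4l (0.12), Rplp0 (0.17) and Rpl6 (0.23) were the next lowest. Among genes that are no members the most alike were Myl12a (0.996), a myosin regulatory light chain, Ank3 (0.991), the ankyrin of the axon initial segment and nodes, Slc2a1 (0.990), a glucose transporter, Sgf29 (0.988) and Kdelr2 (0.984). These genes were picked for the highest values among all tested genes that are no members, over only 6 arrays, and their likeness was not tested. Each point of these correlations is 1 array, and the arrays differ in RNA completeness, cells and code at once.

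The probe sets left out of the gene list gave like medians. Of the 110 that carried several symbols, 96 were bright enough, and 86 of these were higher in L6-R than in L3-S, with a median of 0.31. Within L3-B their median was 0.63, with 84 of 96 brighter in the big array, and within L3-S it was -0.16, with 22 brighter. Among the 19 members with several bright probe sets, all probe sets of a gene had the same sign between L6-R and L3-S in 17, the exceptions being Rpl22 and Rpl41. Between the L3-B arrays they had the same sign in 15 of the 19, the exceptions being Rpl13a, Rpl22, Rpl41 and Rps3. Only 8 of the 39 probe sets used were of the plain design. Of the others 15 had the suffix a, 15 the suffix x and 1 the suffix s. Those with x or s can also detect related sequences, among them the many processed pseudogenes of this family, so single members are uncertain.

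The relatives in the rule were measured unevenly. Rps27l, the p53-regulated relative of Rps27, had 413 and 283 for L3-B, 304 and 320 for L3-S, and 319 and 433 for L6-R. Its groups overlapped, with a difference of 0.23 ± 0.27 between L6-R and L3-S (limma adjusted p 0.733). Rpl3l, known from muscle, had a highest signal of 8.33, and Rpl39l, known from testis, one of 20.0. Rpsa, the laminin receptor protein of the small subunit, whose symbol falls outside the rule, had 2666 and 2421 for L3-B, 2795 and 3871 for L3-S, and 3681 and 3462 for L6-R. It was 0.49 ± 0.24 higher in L6-R than in L3-B (limma adjusted p 0.299).

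The factors that work with the ribosome showed few called genes. Of 11 tested elongation and termination factors 3 had an unadjusted limma p under 0.05 in L6-R against L3-B, as did 21.6% of all tested genes. Of the 11, 1 was called, where 7.51% of all tested genes were. This was Eif5a2, a hypusine-containing factor, which fell by -0.93 ± 0.23 (limma adjusted p 0.0456). Its signals were 3584 and 2750 for L3-B, 2524 and 2365 for L3-S, and 1594 and 1666 for L6-R, a descending order of groups that did not overlap. Eef2, the translocase of elongation, had 1095 and 1863, 1771 and 1984, and 3037 and 2532, at 0.94 ± 0.28 for L6-R against L3-B (limma adjusted p 0.0859). Over all tested genes the 5 comparisons called 0.00% to 7.51%, and 3.52% to 21.6% had an unadjusted limma p under 0.05. Of 31 tested initiation factors limma called none in any of these comparisons, and at most 1 had an unadjusted p under 0.05. Pabpc1, the poly(A)-binding protein, was nearest, at 0.85 ± 0.23 (limma adjusted p 0.0593), with 2123 and 2296 for L3-B and 4412 and 3653 for L6-R.

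Of 40 tested ribosome biogenesis factors limma called none either, with at most 2 at an unadjusted p under 0.05. Over all tested genes the shares by comparison were 0.00% to 7.51% called and 3.52% to 21.6% under 0.05 unadjusted. The median L6-R minus L3-S difference of these factors was 0.16, with 25 higher, against 48.8% of all tested genes. Gnl2, a nucleolar GTPase, had 0.91 ± 0.25 for L6-R against L3-B (limma adjusted p 0.0663). Of 15 tested genes of mTOR signalling and translation control 1 rose in L6-R against L3-S, where 3.18% of all tested genes were called. In the same comparison 7 of the 15 had an unadjusted limma p under 0.05, as did 15.6% of all tested genes. The gene that rose was Rps6ka5, a nuclear kinase of the ribosomal S6 kinase family, at 1.19 ± 0.26 (limma adjusted p 0.0487), with 197 and 243 for L3-S and 617 and 476 for L6-R. Against L3-B 5 of the 15 had an unadjusted limma p under 0.05, as did 21.6% of all tested genes, of which 7.51% were called. Of the 15, 2 rose, Rps6ka5 (1.15 ± 0.26, limma adjusted p 0.0334) and Myc (1.01 ± 0.22, limma adjusted p 0.0314), a transcription factor known to drive ribosomal genes. Myc had 48.7 and 59.6 for L3-B, 71.0 and 61.2 for L3-S, and 133 and 149 for L6-R.

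Mitochondrial ribosomal proteins, which build the separate ribosome of mitochondria, had other values than the cytosolic ones. Of 73 tested, limma called none in any comparison, where between 0.00% and 7.51% of all tested genes were called. In L6-R against L3-S 6 had an unadjusted limma p under 0.05, as did 15.6% of all tested genes. In that comparison 21 of the 73 were higher, against 48.8% of all tested genes, with a median of -0.16. Mrps14, of the mitochondrial small subunit, had 1048 and 954 for L3-S and 542 and 647 for L6-R, a difference of -0.73 ± 0.23 (limma adjusted p 0.152). Within L3-B their median big minus medium to small difference was 0.01. The difference between both families was not tested.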

How the data were processed

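Total RNA of 6 pools of mouse dorsal root ganglion neurons had been measured on 1 array each. The authors deposited 1 linear intensity per probe set and array, with the 2% trimmed mean at 150 on each array. No summary method or scaling software is given in the sources used here. Of 45037 probe sets, 34945 had 1 gene symbol in the platform annotation, 932 several and 9160 none, beside 64 controls. The brightest probe set by mean log2(signal + 32) stood for each of 18193 genes, and the upper 50% (9097) were tested with limma 3.58.1 in R 4.3.3 (lmFit and eBayes, code and size class additive, 2 residual and 6.46 prior degrees of freedom). A fold change on this scale understates changes of dim genes. The number of arrays limits the precision.

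Members and lists were chosen with earlier results of these data known. The genes named were those with the smallest p in each subunit and comparison, relatives, stalk proteins, Rps6 and the genes nearest to the median. Rpl11, Rpl38, Rps10, Rps28, Rps3, Rpl6 and others described within codes were chosen after their values were seen. Alternatives changed scaling, pseudocount, filter, probe set choice, covariate, spread and arrays; the added ones were chosen after seeing the data. The code was tested on simulated data. Motif searches used RefSeq promoter sequences (GRCm38.p6).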

Additional observations from a re-analysis of the deposited data

Results flagged for a closer look

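With the probe sets used, the members' median size-class difference had opposite signs in L3-B and L3-S. This was not tested, since each side rests on 2 arrays. The members' median big minus medium to small difference was 0.60 in L3-B and -0.0684 in L3-S. For the large subunit it was 0.454 and -0.0778, and for the small subunit 0.687 and -0.0605. The brightest 10% of genes without the members had 0.17 and -0.09. Probe sets of the plain design alone, 15 members, gave 0.31 and 0.10, with no change of sign. In all, 25 of the 39 genes were brighter in the big array of L3-B and dimmer in that of L3-S, as were 29.9% of all tested genes. The Actb 3′ to 5′ ratio differed in the same directions (13.9 against 3.73 in L3-B, 5.42 against 12.0 in L3-S), and its part was not tested.

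Differences between codes also had opposite signs in the size classes. The median L3-S minus L3-B difference was -0.37 for the big and 0.36 for the medium to small pools. The median DiI minus control difference was -0.10 for the big and 0.51 for the medium to small pools, with the L6-R arrays included. These differences were not tested either.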

How the results depend on the processing

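No paired analysis was possible because the labels give each combination of code and size class 1 array and no shared replicate numbers. Of 433 recomputed summary values 402 stayed within the spread or count limit and 31 moved. For a median this limit was the standard deviation between the array pairs of the same comparison. Where those pairs disagreed the limit was wide, and a median could turn its sign and still count as staying. The count of 402 is therefore no measure of stability. No member was called in the fit reported, and medians could turn: without 1 array that of DiI minus control ranged from -0.10 to 0.51 and that of L3-S minus L3-B from -0.31 to 0.32. With the Actb ratio as a covariate 2 members (5.13%) passed in L6-R minus L3-S, where 10.9% of all tested genes did. In L6-R minus L3-B 4 members (10.3%) passed, where 17.5% of all tested genes did. The large minus small subunit median in L6-R minus L3-B was 0.00152 with quantile normalization, -0.0243 with the larger pseudocount, -0.0254 without the filter and 0.00440 with probe sets of a gene averaged, which gave 0.0514 in L6-R minus L3-S. It was 0.109 in DiI minus control with the plain design, and in the big arrays alone 0.0812 in DiI minus control and 0.212 in L3-S minus L3-B. Leaving out 1 array at a time, the members called ranged from 0 to 2 in L6-R minus L3-S and DiI minus control, and from 0 to 5 in L6-R minus L3-B. Each fit without 1 array leaves a code with a single array. The calls over all tested genes moved in these fits too, as the next paragraph gives. The members' counts therefore cannot show a change particular to the members. The members' median ranged from 0.13 to 0.62 in L6-R minus L3-S (large subunit 0.13 to 0.50, small 0.16 to 0.70) and from 0.12 to 0.70 in L6-R minus L3-B. The large minus small median ranged from -0.199 to 0.0410 in L6-R minus L3-S, -0.0216 to 0.114 in L6-R minus L3-B, -0.0137 to 0.0812 in DiI minus control and -0.0554 to 0.167 in L3-S minus L3-B. The cause of these moves was not tested.

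The counts over all genes also moved by over 1.5 times. In L6-R minus L3-S 289 genes were called, and 137 with a pseudocount of 1, 107 without the filter, 115 in the upper 25%, 994 with the covariate and 140 to 653 without 1 array. In DiI minus control the 392 became 197 without the filter, 140 in the upper 25%, 255 with the mean of probe sets, 1078 with the covariate and up to 590 without 1 array. In L3-S minus L3-B the 93 became 46 with a pseudocount of 1, 14 without the filter, 21 in the upper 25%, 41 with the mean of probe sets, 512 with the covariate and 61 to 202 without 1 array. In L6-R minus L3-B the 683 became 299 in the upper 25%, 1590 with the covariate and 356 to 995 without 1 array. In big minus medium to small the 0 became 2 with the covariate. Between 55.3% and 59.5% of probe sets per array had a signal below 32, so dim members have little resolution.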
